A study of Mus musculus with 6 samples.

Results

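The 10 genes described here handle iron or protect cells from ferroptosis, the form of cell death that follows when iron drives the oxidation of membrane lipids. They were listed by gene symbol, with earlier results of these data known, and all 10 were found among the 54446 rows of the count matrices. Transcripts were counted in 6 droplet single-cell 5′ RNA libraries of mouse glioma cells, 2 of GL261 and 4 of GL261-GSCs. GL261 is an established mouse glioma line, cultured here with foetal calf serum (FCS) in what the labels call differentiation medium. GL261-GSCs are glioblastoma stem cell cultures derived from that line and kept in a defined GSC medium. No treatment, time point or genetic change is named for either group, so that culture type and medium cannot be told apart. Both groups go back to 1 line, and nothing in the labels says that the libraries came from separate cultures. The p-values therefore measure the spread between these libraries, which may be technical.

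Libraries held 80899005 to 121309232 unique molecular identifiers (UMIs, each a counted transcript molecule), of which 33320530 to 79472306 lay in 4264 to 7275 called cells. GL261-GSCs replicate 4 stood apart in depth, with 41.2% of its UMIs in cells and a median of 6670 UMIs per cell against 10638 to 15478 elsewhere. Pairs of libraries shared 32 to 59 cell barcodes, close to the number that chance gives. As a check of the labelled cell type, genes used as neural stem cell markers did not move one way. Sox2 averaged 67.1 ± 0.517 counts per 1000000 UMIs (CPM; SD, n = 2) in GL261 and rose to 123 ± 27.9 (SD, n = 4) in GL261-GSCs (edgeR, adjusted p = 0.0334). Nes, which encodes nestin, averaged 1224 ± 58.3 CPM (SD, n = 2) in GL261 and fell to 427 ± 118 (SD, n = 4) in GL261-GSCs (edgeR, adjusted p = 0.00523). Prom1, which encodes the stem cell marker CD133, had 3 and 8 UMIs in all. Olig2, also part of this check, changed the most of its tested genes. From 0.0166 to 0.918 CPM in the GL261 libraries, its level reached 401 to 787 CPM in those of GL261-GSCs. That rise was 10.2 ± 1.17 (SE) on the log2 scale (edgeR, adjusted p = 0.00132). Hba-a2, Hbb-bs and Hbb-bt, which encode haemoglobin chains, were at 0 in every library, and the whole list of 6 erythroid markers summed to 0 to 18 UMIs per library. The summed levels of the astrocyte, endothelial and fibroblast marker lists lay apart between groups, each carried by 1 or 2 genes while other markers of the same list went the other way. Astrocyte markers summed to 90.9 and 97.0 CPM in GL261 and 118 to 216 in GL261-GSCs, endothelial markers to 36.3 and 48.6 against 59.0 to 86.1, and fibroblast markers to 258 and 292 against 38.0 to 228, with Aqp4 and Cldn5 at 0 throughout. S100b and Gja1 carried the astrocyte sums, while Gfap fell (165 UMIs in GL261 and 3 in GL261-GSCs; edgeR, adjusted p = 0.00155) and so did Aldh1l1. Flt1 carried the endothelial sums, while Cdh5 fell. In the fibroblast list Col1a1 and Pdgfrb fell and Col3a1 rose. The part of these markers in the results was not tested.

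Cells take up iron as a complex of transferrin with its receptor, store it in ferritin, a shell of heavy and light chains, and release it through ferroportin. Iron that is neither stored nor built into proteins can start chains of lipid peroxidation. The lipid peroxidase Gpx4 ends these chains with glutathione, whose cysteine enters the cell as cystine through the transporter encoded by Slc7a11. In gliomas, iron uptake and ferritin have been studied as needs of the stem-like cells, and ferroptosis as a weakness of therapy-resistant cells.

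Of the 10 genes, 4 carry iron-responsive elements in their messages, the hairpins through which the iron sensors Irp1 and Irp2 set ferritin, ferroportin and transferrin receptor synthesis. These sites are shown because they tie together the genes of uptake, storage and export, whose levels are given next. Each sequence is read 5′ to 3′ on the gene's strand of GRCm38 with the GENCODE M21 transcripts, and capitals mark the bulged C and the CAGTG of the loop. The Fth1 site lies in the 5′ UTR at chr19:9982730-9982759 on the plus strand, the Ftl1 site in the 5′ UTR at chr7:45459780-45459809 on the minus strand, and the Slc40a1 site in the 5′ UTR at chr1:45925466-45925495 on the minus strand. The Tfrc sites lie in the 3′ UTR on the plus strand, at chr16:32631217-32631246, chr16:32631596-32631625, chr16:32631661-32631690 and chr16:32631708-32631737.
Fth1: gtttcctgCttcaaCAGTGcttgaacggaa
Ftl1: gtgtcttgCttcaaCAGTGtttgaacggaa
Slc40a1: tccaacttCagctaCAGTGttagctaagtt
Tfrc site 1: ataattatCggaagCAGTGccttccataat
Tfrc site 2: cacattatCgggagCAGTGtcttccataat
Tfrc site 3: gtctatatCggagaCAGTGatctccatatg
Tfrc site 4: gtaattatCgggaaCAGTGtttcccataat
The search asked, on the coding strand, for a C, a stem of 5 bases, the loop CAGTGN and 5 bases that pair with the stem, G with T allowed. By this rule 31 of 21901 protein-coding genes (0.142%) held a site in a 5′ UTR and 129 (0.589%) in a 3′ UTR. A match describes the letters and not a working element.

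Levels were compared between groups on the UMI total of all called cells in a library, as CPM with scaling by trimmed mean of M values (TMM). Of the 10 genes, 9 had enough UMIs to be tested, and 3 of these fell in GL261-GSCs, namely Tfrc, Gpx4 and Nqo1, with 0 higher (edgeR quasi-likelihood test, adjusted p under 0.05). Over all 18439 genes tested, 29.9% passed the same test, 14.1% lower and 15.8% higher in GL261-GSCs, so that the share of 33.3% among the 9 was close to the background. DESeq2 passed 6 of the 9, 5 lower and 1 higher, the same numbers as at an unadjusted edgeR p under 0.05, and limma-voom passed 3 lower and 0 higher. Over all genes tested DESeq2 passed 36.7% (20% higher and 16.7% lower), limma-voom 29.5% (14.5% higher and 15.1% lower) and the unadjusted edgeR p 42.5% (22.6% higher and 19.9% lower). With scaling by library size alone, the calls over all genes split into 3491 higher and 2034 lower in place of 2920 and 2594, and the median log2 difference of all genes moved from 0.04 to 0.18. Levels of the 2 groups had no overlap for 6 of the 9, 5 lower and 1 higher in GL261-GSCs, against 56.7% of all genes tested (28% lower and 28.7% higher). The median log2 difference of the 9 genes was -0.61.

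**Figure D1:**
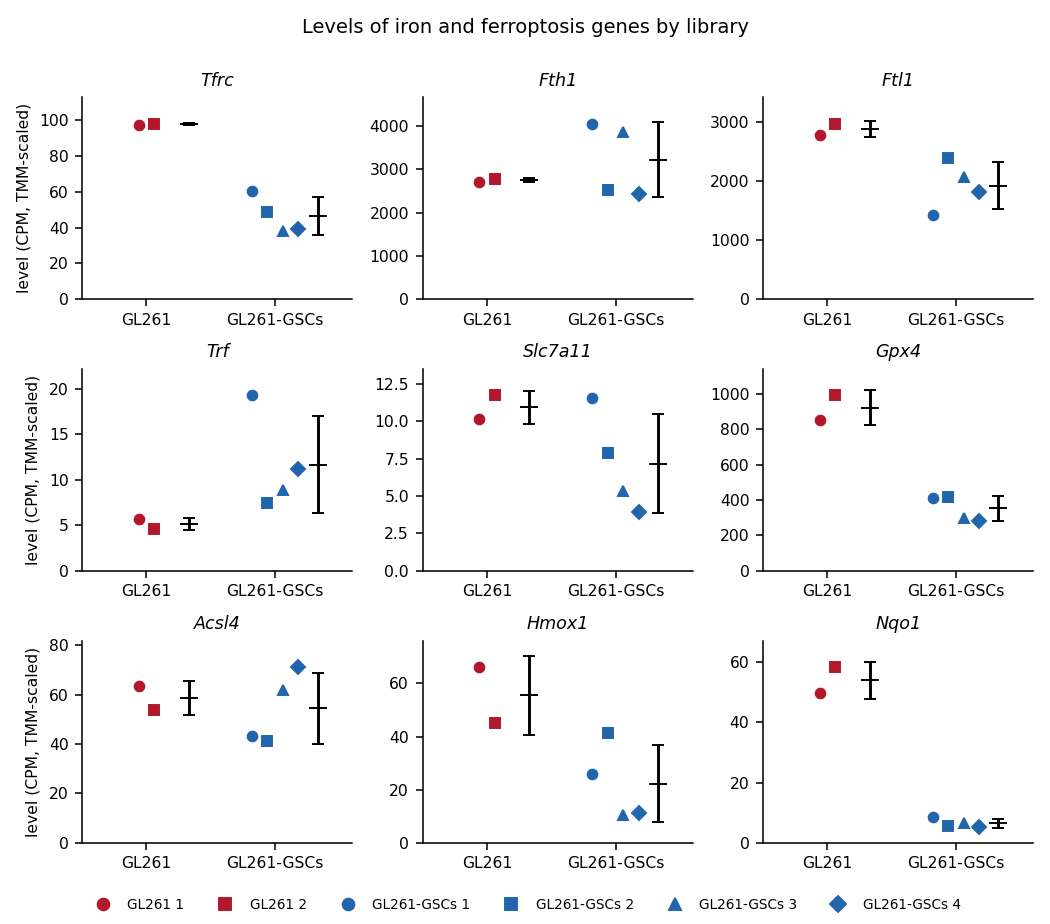
Level of 9 genes in each library, in CPM with TMM scaling, on linear axes that start at 0. Red points are the 2 GL261 libraries, blue points the 4 GL261-GSCs libraries, and black bars the mean ± SD of each group. Tfrc, Ftl1, Gpx4, Hmox1 and Nqo1 lie lower in every GL261-GSCs library than in either GL261 library, Trf lies higher, and Fth1, Slc7a11 and Acsl4 overlap.

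Among the genes of iron uptake, Tfrc fell. Tfrc (chr16:32608920-32632794, plus strand), the transferrin receptor that brings iron-loaded transferrin into the cell, stood at 97.4 and 98.1 CPM in GL261 replicates 1 and 2. In GL261-GSCs replicates 1 to 4 it stood at 60.6, 48.5, 38.2 and 38.9 CPM. All 4 GL261-GSCs libraries lay below both GL261 libraries, whose values were nearly equal. The level fell by 1.07 ± 0.20 (SE) on the log2 scale (edgeR, adjusted p = 0.00893), which is 2.10-fold lower. The fall kept its size without either GL261 library but no longer passed the test, with edgeR adjusted p-values of 0.0696 without GL261 replicate 1 and 0.0766 without GL261 replicate 2.

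Trf (chr9:103204001-103230444, minus strand) encodes transferrin itself, which in the brain is made largely by oligodendrocytes. It was scarce in GL261, at 5.64 and 4.64 CPM in replicates 1 and 2. GL261-GSCs replicates 1 to 4 held 19.3, 7.41, 8.84 and 11.2 CPM. Every GL261-GSCs library lay above both GL261 libraries, and replicate 1 was the highest. The log2 difference of 1.18 ± 0.41 (SE) did not pass the test (edgeR, adjusted p = 0.0714). It passed with DESeq2 (adjusted p = 0.0147), without the filter on low counts (edgeR, adjusted p = 0.0441), without GL261-GSCs replicate 1 (edgeR, adjusted p = 0.0442) and without GL261-GSCs replicate 2 (edgeR, adjusted p = 0.0470). Among oligodendrocyte markers, Mog, Mobp, Cnp and Opalin rose in GL261-GSCs, Mbp fell, Mag did not pass the test (edgeR, adjusted p = 0.0900) and Ermn had 0 UMIs in every library. Cnp, for instance, averaged 29.5 ± 0.0774 CPM (SD, n = 2) in GL261 and 181 ± 20.98 (SD, n = 4) in GL261-GSCs (edgeR, adjusted p = 0.000155). The part of these markers' cell state in the Trf level was not tested.

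Among the 11 other uptake and transfer genes, all tested, 4 fell and 0 rose in edgeR; 1 was higher at an unadjusted p under 0.05 and with DESeq2. The 4 are 36.4% of the list, beside 29.9% of all genes that passed in either direction and 14.1% that fell. The largest fall was that of Slc39a14, a metal importer of the ZIP family that carries non-transferrin-bound iron. It averaged 36.1 ± 4.04 CPM (SD, n = 2) in GL261 and 8.27 ± 1.65 (SD, n = 4) in GL261-GSCs. The level fell by 2.12 ± 0.20 (SE) on the log2 scale (edgeR, adjusted p = 0.000651). The list's median log2 difference was -0.47, beside 0.04 for all genes tested.

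The ferritin chains had the most UMIs of the 10 genes, and their balance varied between libraries. Fth1 (chr19:9980598-9985098, plus strand), the heavy chain that oxidises iron for storage, stood at 2711 and 2777 CPM in GL261 replicates 1 and 2. GL261-GSCs replicates 1 to 4 held 4053, 2511, 3870 and 2436 CPM. The GL261-GSCs libraries fell on both sides of GL261, replicates 1 and 3 above and replicates 2 and 4 below. The log2 difference was 0.23 ± 0.26 (SE), within the spread between libraries (edgeR, adjusted p = 0.535).

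Ftl1 (chr7:45457944-45459884, minus strand), the light chain that promotes formation of the iron core, stood at 2790 and 2980 CPM in GL261 replicates 1 and 2. GL261-GSCs replicates 1 to 4 held 1430, 2391, 2070 and 1826 CPM. All 4 lay below GL261, with replicate 1 the lowest. The log2 difference of -0.58 ± 0.21 (SE) did not pass the test (edgeR, adjusted p = 0.0812). It passed with DESeq2 (adjusted p = 0.0408) and when every barcode of the matrix was summed (edgeR, adjusted p = 0.0483). Between groups, 646 well-counted genes of chromosome 7 (average log2 CPM of 3 or more), which holds Ftl1, had a median log2 difference of -0.30. The median of 0.04 for all genes tested has no such limit. With the limit, the chromosomes of the other genes described had medians of -0.24 to 0.11. Whether the chromosome 7 value bears on Ftl1 was not tested.

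The share of ferritin UMIs that came from Fth1 was compared between libraries rather than read as a ratio of the chains. It was 49.3% and 48.2% in GL261 replicates 1 and 2, and 73.9%, 51.2%, 65.2% and 57.2% in GL261-GSCs replicates 1 to 4. Every GL261-GSCs library lay above both GL261 libraries, replicate 2 by the least. The means were 48.8% ± 0.737 (SD, n = 2) and 61.9% ± 9.86 (SD, n = 4), with an exact permutation p of 0.133, 2-sided, the smallest that 2 against 4 libraries can give. The summed level of both chains was 5501 and 5757 CPM in GL261 and 5483, 4902, 5940 and 4261 CPM in GL261-GSCs, which overlapped. Rows of the ferritin pseudogenes were thin, with 762 UMIs in the largest, Ftl1-ps1, over all libraries.

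**Figure D2:**
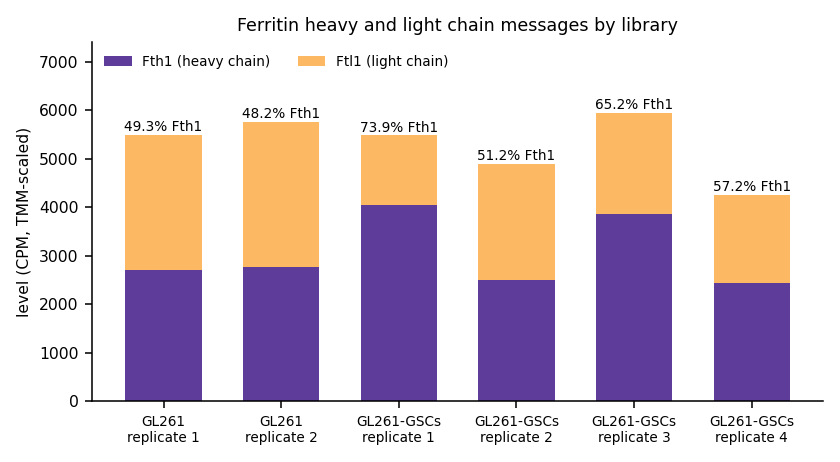
Summed level of the ferritin chains in each library, in CPM with TMM scaling, from 0. Purple is Fth1 and orange Ftl1, and the percentage above each bar is the share of ferritin UMIs from Fth1. The total overlaps between groups, while the Fth1 share is 48.2% and 49.3% in GL261 and 51.2% to 73.9% in GL261-GSCs.

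Slc40a1 (chr1:45908068-45926523, minus strand) encodes ferroportin, the iron exporter, and was nearly undetected. It had 3 UMIs in GL261 replicate 1, each in a different cell, and 0 in the other 5 libraries, so that no fold was computed. A count of 0 allows a share of cells with a UMI of up to 0.0412% to 0.0704% in those libraries, by counting error alone; this limit is 3 cells of the total, not the exact binomial bound. Of the 8 other storage and export genes, 2 had enough UMIs to be tested and neither passed, in edgeR (also unadjusted), DESeq2 or limma-voom; 29.9% of all genes passed in edgeR, and 2 genes are too few to describe the list. Ncoa4, the receptor that delivers ferritin to lysosomes for iron release, averaged 17.2 ± 0.964 CPM (SD, n = 2) in GL261 and 21.3 ± 4.94 (SD, n = 4) in GL261-GSCs (edgeR, adjusted p = 0.356). The genes of hepcidin, Hamp and Hamp2, had 3 and 0 UMIs over all libraries.

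The messages of both iron sensors rose in GL261-GSCs. Aco1, which encodes cytosolic aconitase and Irp1, stood at 32.2 and 33.4 CPM in GL261 and at 45.75, 44.3, 54.2 and 52.9 CPM in GL261-GSCs replicates 1 to 4. Its log2 difference was 0.59 ± 0.14 (SE; edgeR, adjusted p = 0.0202). Ireb2, which encodes Irp2, stood at 37.0 and 36.7 CPM in GL261 and at 50.8, 46.2, 49.8 and 58.8 CPM in GL261-GSCs. Its log2 difference was 0.48 ± 0.14 (SE; edgeR, adjusted p = 0.0389). The groups overlapped for neither gene, but both calls were lost without GL261 replicate 1, without GL261 replicate 2 or without GL261-GSCs replicate 3, with edgeR adjusted p-values of 0.0512 to 0.236, and that of Ireb2 also without the filter on low counts (edgeR, adjusted p = 0.0766). In this list of iron sensing genes 4 of 7 were tested, 2 rose and 0 fell in edgeR, with 3 higher and 0 lower at an unadjusted p under 0.05 and with DESeq2. Over all genes tested 15.8% rose and 14.1% fell in edgeR.

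Among 14 genes of mitochondrial iron, iron-sulphur clusters and haem synthesis, all tested, 2 fell and 0 rose in edgeR, with 5 lower and 0 higher at an unadjusted p under 0.05 and 4 lower and 0 higher with DESeq2. The 2 are 14.3% of the list, beside 29.9% of all genes tested. Fech, the ferrochelatase that inserts iron into haem, averaged 56.2 ± 5.21 CPM (SD, n = 2) in GL261 and 20.1 ± 2.47 (SD, n = 4) in GL261-GSCs. It fell by 1.48 ± 0.15 (SE) on the log2 scale (edgeR, adjusted p = 0.000797). The other gene that fell was Abcb10, a transporter of the inner mitochondrial membrane, named here after its value was seen. The list's median was -0.36.

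**Figure D3:**
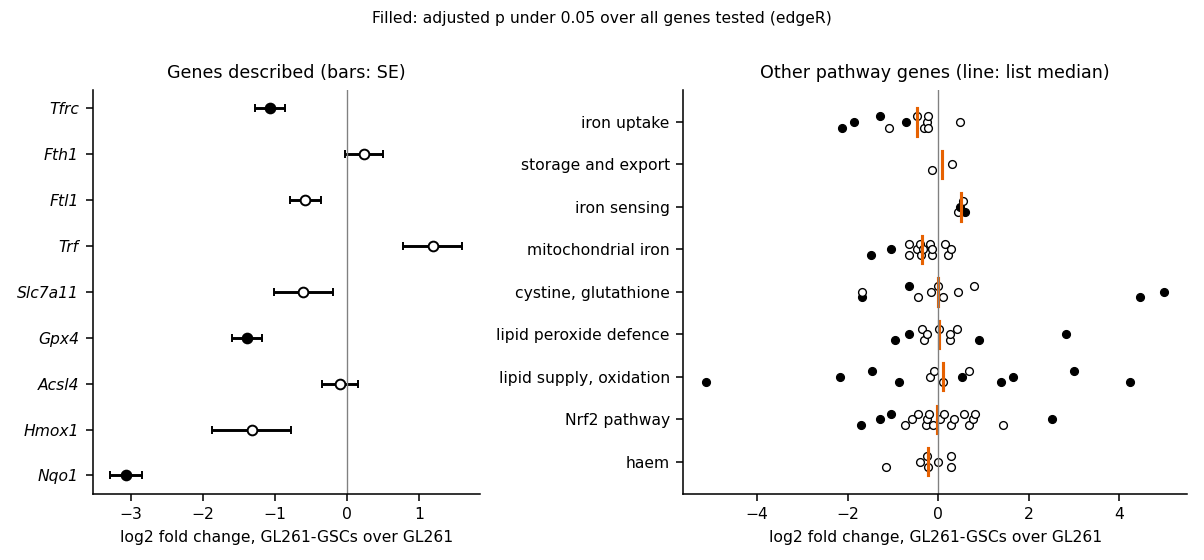
Log2 fold changes of GL261-GSCs over GL261, on linear axes. The left panel gives the 9 tested genes with SE bars and the right panel 93 other pathway genes by list with each list's median as an orange line; filled points have an adjusted p under 0.05 in edgeR. Tfrc, Gpx4 and Nqo1 are the filled points on the left, and the lists on the right hold 12 filled points above 0 and 17 below.

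Gpx4 (chr10:80047166-80056439, plus strand), the selenium-dependent peroxidase that reduces lipid hydroperoxides in membranes, fell in GL261-GSCs. It stood at 855 and 992 CPM in GL261 replicates 1 and 2. GL261-GSCs replicates 1 to 4 held 413, 418, 299 and 282 CPM. The highest GL261-GSCs library was far below the lowest GL261 library, and replicates 3 and 4 were lower than replicates 1 and 2. The level fell by 1.39 ± 0.20 (SE) on the log2 scale (edgeR, adjusted p = 0.00343), 2.62-fold, and passed the test under all 16 alternatives run. Reads of the near-identical copy Gpx4-ps2 could not be told from those of Gpx4 with certainty, and its row held 2.59% as many UMIs.

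Slc7a11 (chr3:49892526-50443614, minus strand), the cystine importer that feeds glutathione synthesis, stood at 10.2 and 11.7 CPM in GL261. In GL261-GSCs replicates 1 to 4 it stood at 11.5, 7.88, 5.33 and 3.96 CPM. Replicate 1 lay within the range of GL261 and the other 3 lay below it. The log2 difference of -0.61 ± 0.41 (SE) did not pass the test (edgeR, adjusted p = 0.297). In GL261-GSCs replicate 1, which held the most Slc7a11 of its group, 453 well-counted genes of chromosome 3 had a median of -0.40 on the log2 scale against the other 3 libraries of the group, and -0.24 between groups. Whether this bears on Slc7a11 was not tested.

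Of the 11 other genes of cystine uptake and glutathione, all tested, 2 rose and 2 fell in edgeR, 36.4% beside 29.9% of all genes tested. Slc3a2, the heavy chain that pairs with the Slc7a11 product, averaged 180 ± 5.23 CPM (SD, n = 2) in GL261 and 161 ± 19.3 (SD, n = 4) in GL261-GSCs (edgeR, adjusted p = 0.430). Gclm, a subunit of the enzyme that starts glutathione synthesis, averaged 98.0 ± 1.97 (SD, n = 2) and 62.7 ± 11.4 CPM (SD, n = 4). It fell by 0.64 ± 0.19 (SE) on the log2 scale (edgeR, adjusted p = 0.0401), a call lost without GL261 replicate 1, without GL261 replicate 2, without GL261-GSCs replicate 1, without GL261-GSCs replicate 3 (edgeR adjusted p-values of 0.0508 to 0.216), or with scaling by library size alone (edgeR, adjusted p = 0.0607).

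Cbs, which makes cystathionine, a step of an internal route from methionine to cysteine, showed the largest difference of this list among well-counted genes. It stood at 0.918 and 0.878 CPM in GL261 and at 19.3, 24.4, 18.6 and 16.5 CPM in GL261-GSCs. The log2 difference was 4.45 ± 0.25 (SE; edgeR, adjusted p = 0.000101). Cth, the next enzyme of this route, named here after its value was seen, lay the other way without overlap, at 16.0 and 18.97 CPM in GL261 and 2.64 to 12.4 CPM in GL261-GSCs. Its log2 difference of -1.69 ± 0.63 (SE) did not pass the test (edgeR, adjusted p = 0.0836). Chac1, which breaks glutathione down, stood at 29.4 and 32.4 CPM in GL261 and at 11.9, 12.8, 5.78 and 7.80 CPM in GL261-GSCs. It fell by 1.69 ± 0.32 (SE) on the log2 scale (edgeR, adjusted p = 0.00855), and the call was lost without GL261 replicate 1 (edgeR, adjusted p = 0.0553) or GL261 replicate 2 (edgeR, adjusted p = 0.0749).

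The 11 other genes on the list of lipid peroxide defence and radical-trapping molecules were all tested. In edgeR 2 rose and 2 fell, 36.4% beside 29.9% of all genes tested. The genes that rose were Dhcr7 and Prdx6, and those that fell Sephs2 and Spr, of which Prdx6 and Spr are named here after their values were seen. Dhcr7 uses up a protective molecule, as it turns the peroxyl-radical-trapping sterol 7-dehydrocholesterol into cholesterol. It averaged 22.2 ± 1.79 CPM (SD, n = 2) in GL261 and 158 ± 37.0 (SD, n = 4) in GL261-GSCs. Its log2 difference was 2.83 ± 0.26 (SE; edgeR, adjusted p = 0.000550). Sephs2, which makes the selenium donor for selenoproteins such as Gpx4, averaged 60.8 ± 1.91 CPM (SD, n = 2) and 31.6 ± 9.28 (SD, n = 4). It fell by 0.94 ± 0.26 (SE) on the log2 scale (edgeR, adjusted p = 0.0332), and the call was lost without GL261 replicate 1, without GL261 replicate 2, without GL261-GSCs replicate 2 or without GL261-GSCs replicate 3 (edgeR adjusted p-values of 0.0566 to 0.180). Aifm2, the gene of the ubiquinone reductase Fsp1 that acts in parallel to Gpx4, averaged 11.8 ± 1.40 and 12 ± 1.92 CPM (SD, n = 2 and n = 4; edgeR, adjusted p = 0.956).

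Acsl4 (chrX:142317993-142390535, minus strand) loads polyunsaturated fatty acids into the lipids that are oxidised in ferroptosis. It stood at 63.5 and 53.8 CPM in GL261. In GL261-GSCs replicates 1 to 4 it stood at 43.2, 41.4, 62.1 and 71.2 CPM. Replicates 1 and 2 lay below GL261, replicate 3 between the GL261 libraries and replicate 4, the shallow library, above both. The log2 difference was -0.11 ± 0.25 (SE; edgeR, adjusted p = 0.773) and its sign turned to 0.05 with scaling by library size alone.

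The list of lipid supply and oxidation held the most genes that passed, with 5 genes higher and 4 lower among 13 tested of 16. That is 69.2%, beside 29.9% of all genes tested (15.8% higher and 14.1% lower). Mboat2, a phospholipid acyltransferase that inserts monounsaturated chains, stood at 1.69 and 0.729 CPM in GL261 and at 14.4, 13.7, 29.7 and 33.5 CPM in GL261-GSCs. The log2 difference was 4.23 ± 0.61 (SE; edgeR, adjusted p = 0.00326). Mboat1, its paralogue, averaged 21.9 ± 3.58 CPM (SD, n = 2) in GL261 and 7.99 ± 3.15 (SD, n = 4) in GL261-GSCs. It fell by 1.45 ± 0.35 (SE) on the log2 scale (edgeR, adjusted p = 0.0206), and the call was lost without GL261 replicate 1 (edgeR, adjusted p = 0.0836) or GL261 replicate 2 (edgeR, adjusted p = 0.157). These paralogues moved in opposite directions.

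Hmox1 and Nqo1 are common targets of the oxidative stress factor Nrf2, and every GL261-GSCs library lay below both GL261 libraries for each of them. Nqo1 (chr8:107388225-107403206, minus strand), a quinone reductase, stood at 49.6 and 58.4 CPM in GL261 replicates 1 and 2. GL261-GSCs replicates 1 to 4 held 8.52, 5.66, 6.45 and 5.08 CPM. The groups were far apart and the 4 GL261-GSCs libraries close together. The level fell by 3.07 ± 0.22 (SE) on the log2 scale (edgeR, adjusted p = 0.000231), 8.38-fold, and passed the test under all 16 alternatives run.

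Hmox1 (chr8:75093621-75100589, plus strand), which breaks haem down and frees its iron, stood at 66.1 and 45.1 CPM in GL261. GL261-GSCs replicates 1 to 4 held 25.7, 41.2, 10.6 and 11.1 CPM. All 4 lay below GL261, replicate 2 only just. The log2 difference of -1.33 ± 0.55 (SE) did not pass the test (edgeR, adjusted p = 0.113). A single cell of GL261-GSCs replicate 2 held 609 of that library's Hmox1 UMIs, 20.4% of them, and the cell with the next most held 136. Without this cell the library's level was 32.8 CPM and the log2 difference -1.47 (edgeR, adjusted p = 0.0585), an alternative chosen after the values were seen. Without the whole library it was -1.79 (edgeR, adjusted p = 0.0321), and DESeq2 on all libraries gave an adjusted p of 0.0438. The cell held 18115 UMIs, of which 5 came from the 10 macrophage markers. All 5870 called cells of that library together held 668 UMIs of these markers, so 5 was above the average cell. The type of this cell was not tested.

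In the whole list of macrophage and microglia markers, 8 or 9 of the 10 genes had at most 10 UMIs in each library, and C1qa had 0 in all. The summed level was 9.22 to 23.2 CPM in GL261-GSCs and 19.9 and 21 in GL261. Cd68 was counted in both groups, with Csf1r beside it in GL261. Csf1r, the receptor for colony-stimulating factor 1, averaged 12.8 ± 0.164 CPM (SD, n = 2) in GL261 and fell to 0.227 ± 0.0232 (SD, n = 4) in GL261-GSCs (edgeR, adjusted p = 3.19e-05). Cd68 averaged 7.45 ± 0.583 CPM (SD, n = 2) and 16.1 ± 6.10 (SD, n = 4), a difference that did not pass the test (edgeR, adjusted p = 0.0662). The part of these genes in the Hmox1 level was not tested.

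Of 20 other genes of the Nrf2 pathway, all tested, 1 rose and 3 fell in edgeR (20% passed, beside 29.9% of all genes tested), with a median of -0.03. DESeq2 passed 5 higher and 3 lower, beside 20% and 16.7% of all genes tested. At an unadjusted edgeR p under 0.05 there were 5 higher and 4 lower, beside 22.6% and 19.9%, and limma-voom passed 1 higher and 3 lower. Nfe2l2, which encodes Nrf2, averaged 54.0 ± 1.20 CPM (SD, n = 2) in GL261 and 46.7 ± 3.79 (SD, n = 4) in GL261-GSCs (edgeR, adjusted p = 0.241). Keap1, the adaptor that marks Nrf2 for degradation, averaged 68.0 ± 4.35 and 86.3 ± 6.32 CPM (SD, n = 2 and n = 4; edgeR, adjusted p = 0.0798). Keap1 passed in 3 of 10 other settings, among them DESeq2 (adjusted p = 0.0444) and scaling by library size alone (edgeR, adjusted p = 0.0193). With 1 library left out it passed without GL261-GSCs replicate 4 (edgeR, adjusted p = 0.0452). Bach1, a repressor of Hmox1, averaged 43.5 ± 0.998 and 47.8 ± 5.70 CPM (SD, n = 2 and n = 4; edgeR, adjusted p = 0.509).

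Taldo1, the transaldolase of the pentose phosphate pathway, fell the most in this list, from 520 ± 31.8 CPM (SD, n = 2) to 160 ± 30.3 (SD, n = 4). Its log2 difference was -1.70 ± 0.19 (SE; edgeR, adjusted p = 0.00109). Gsta4, a glutathione transferase for products of lipid peroxidation, rose from 6.38 and 4.75 CPM in GL261 to 62.6, 29.96, 16.1 and 18.6 CPM in GL261-GSCs replicates 1 to 4. The log2 difference was 2.51 ± 0.62 (SE; edgeR, adjusted p = 0.0238), and the call was lost without GL261 replicate 1 (edgeR, adjusted p = 0.123) or GL261 replicate 2 (edgeR, adjusted p = 0.172). Txnrd1, thioredoxin reductase, averaged 266 ± 4.26 and 398 ± 149 CPM (SD, n = 2 and n = 4). Its difference did not pass the test (edgeR, adjusted p = 0.244), but passed in 1 of 10 other settings. Of 7 further genes of haem breakdown and transport, all tested, 0 passed the edgeR test, 1 had an unadjusted p under 0.05, and DESeq2 and limma-voom passed 0, beside 29.9% of all genes tested in edgeR, 36.7% in DESeq2 and 29.5% in limma-voom.

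Over all 9 lists, 93 of 105 genes were tested, 12 rose and 17 fell, 31.2% against 29.9% of all genes tested, and their median was -0.16. Without GL261 replicate 1, without GL261 replicate 2 or without GL261-GSCs replicate 3 the number that passed was 10, 9 or 19 in place of 29.

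Promoter windows of 300 bases from RefSeq (GRCm38.p6) were matched for 7 of the 10 genes, with none for Trf, Slc40a1 and Hmox1. The windows lie close around the transcript start, so that elements further upstream were not searched. The core of the antioxidant response element, TGACNNNGC on either strand, was in none of these windows, Nqo1's included, and in 12.4% of all 32851 windows. The hypoxia response core ACGTG on either strand was in that of Tfrc alone, and in 19.6% of all windows.

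The same genes were then followed cell by cell. Each cell was thinned to 2000 UMIs, so that libraries of different depth could be compared, and cells in which a gene had 1 UMI or more were counted. Gpx4 was seen in 74.6% and 79.4% of GL261 cells and in 49.8%, 53.4%, 40.7% and 38.6% of cells in GL261-GSCs replicates 1 to 4. The groups did not overlap, and the difference of means was -31.4 percentage points. Nqo1 was seen in 8.55% and 10.1% of GL261 cells and in 1.64%, 1.11%, 1.33% and 1.06% of GL261-GSCs cells. Tfrc was seen in 16.4% and 16.0% of GL261 cells and in 12.8%, 10.6%, 8.55% and 9.73% of GL261-GSCs cells. Hmox1 was seen in 8.465% and 7.36% and in 4.36%, 5.88%, 2.08% and 1.71%, so that its lower level in GL261-GSCs replicate 2 was also a lower share of cells.

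Trf was seen in 1.35% and 0.960% of GL261 cells and in 4.32%, 1.74%, 1.95% and 2.70% of GL261-GSCs cells, again without overlap. Ftl1 was seen in 96.2% and 97.1% and in 86.4%, 95%, 89.7% and 87.3%. Fth1, Slc7a11 and Acsl4 overlapped between groups. For each of the 6 genes without overlap the exact permutation p was 0.133, 2-sided, again the smallest possible, and 0.2 after adjustment over the 9 genes compared. Over all genes tested the shares of cells did not overlap for 49.1% (31.2% higher and 17.9% lower in GL261-GSCs). Without thinning the mean shares of Gpx4 were 96.0% and 82.0% and those of Nqo1 39.4% and 6.64%.

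Free RNA in the droplets would give a lower share in every library for all 9 genes. For Nqo1 it would give 0.748% and 0.822% of cells in GL261 and 0.0819% to 0.214% in GL261-GSCs, and for Trf 0.0364% to 0.417%. For Fth1 it would give 21.5% to 45.2%, highest in GL261-GSCs replicate 4. These shares were computed from barcodes that held at least 100 and under 1000 UMIs, since the cultures hold no cell type known to lack these genes.

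**Figure D4:**
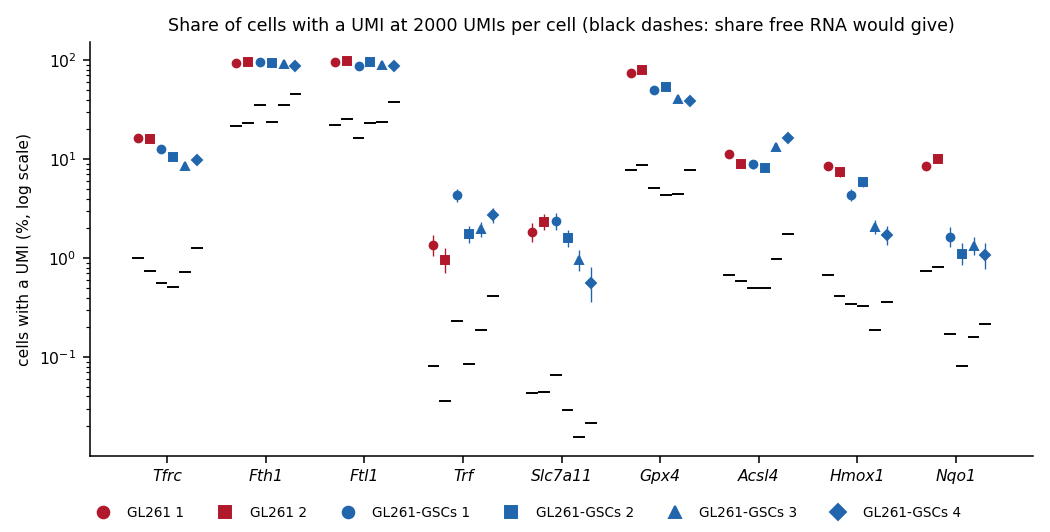
Share of cells with a UMI of each gene after thinning to 2000 UMIs per cell, on a log axis, in red for the GL261 and blue for the GL261-GSCs libraries. Vertical bars are 95% exact binomial intervals, which cover counting error only, and black dashes mark the share that free RNA would give. Each point lies above its dash; Gpx4, Nqo1, Tfrc, Hmox1 and Ftl1 are lower in every GL261-GSCs library than in GL261, and Trf higher.

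The spread over the cells of a library differed between the genes. If the UMIs of a gene were spread at random over cells, the variance of UMIs per cell would equal the mean. At 2000 UMIs per cell the ratio of variance to mean was 1.41 to 12.9 for Hmox1. The highest value, in GL261-GSCs replicate 2, was 3.19 without the library's highest cell, and that of GL261 replicate 1 went from 7.75 to 4.46. The ratio was 3.8 to 8.68 for Fth1 and 1.90 to 4.06 for Ftl1. For Gpx4 it was 1.16 to 1.27, and for Trf, Acsl4 and Tfrc 1.005 to 1.24. For the same relative variation the ratio rises with the mean, so genes with unlike means cannot be compared by it. The mean was 0.0098 UMIs per cell for Trf in GL261 replicate 2 and 7.52 for Fth1 in GL261-GSCs replicate 1. For Hmox1 the 1% of cells with the most UMIs held 18.4% to 40.6% of the gene's UMIs in a library. The upper value is that of GL261-GSCs replicate 2, in which 1 cell held 20.4%. These top cells were taken on full counts, with depth not matched between libraries. The same share was 18.6% to 42.4% for Slc7a11 and 10.4% to 40.5% for Nqo1. Both upper values are those of GL261-GSCs replicate 4, where these genes had 144 and 185 UMIs. Few UMIs put a large share in the top cells by count alone, so these ranges cannot be compared between genes. In GL261 replicate 1, Hmox1 with 4464 UMIs had 28.6% and Nqo1 with 3351 had 12.4%. In GL261 replicate 2, Hmox1 with 2721 UMIs had 18.4% and Nqo1 with 3523 had 10.4%. The share that UMIs spread at random would give in the top 1% was not computed.

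Several of the genes also differed with the expression of mitotic genes. Within each library, cells with at least 3 UMIs of 15 mitotic genes after thinning (45.1% to 65.2% of cells) were set against cells with 0 (10.7% to 22.6%). The classes are ranges of a score and not cell types, and 496 to 855 cells per library lay just under the limit with 2 UMIs. The full counts of each class were then summed per library and compared within libraries. Of the 9 genes tested 7 passed (edgeR, adjusted p under 0.05), 2 higher and 5 lower in the mitotic class, against 46.4% of 15299 genes tested (21.5% higher and 24.8% lower). The median over the 9 genes was -0.21 beside -0.04 for all genes.

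Hmox1 differed the most. Its level in CPM, by library size, was 41.2 in mitotic against 107 in other cells of GL261 replicate 1 and 31.1 against 76.7 in GL261 replicate 2. In GL261-GSCs replicates 1 to 4 it was 20.9 against 42.0, 26.3 against 184, 7.97 against 18.0 and 9.475 against 16.1. All 6 libraries were lower in the mitotic class. The fitted log2 difference was -1.47 ± 0.20 (SE; edgeR, adjusted p = 0.000103), and -1.25 without the single high cell of GL261-GSCs replicate 2, which had no mitotic UMI. That cell held 609 of the 1161 Hmox1 UMIs behind the level of 184 CPM.

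Nqo1 was lower in the mitotic class of 6 of 6 libraries, by 0.13 to 0.78 on the log2 scale; the fitted difference was -0.55 ± 0.08 (SE; edgeR, adjusted p = 0.000129). Ftl1 was lower in 6 of 6 with -0.31 ± 0.05 (SE; edgeR, adjusted p = 0.000337), and Fth1 in 6 of 6 with -0.21 ± 0.05 (SE; edgeR, adjusted p = 0.00359). The Fth1 call was kept in 4 of 5 other settings, with a highest edgeR adjusted p of 0.0847. Gpx4 was lower in 6 of 6 with -0.20 ± 0.06 (SE; edgeR, adjusted p = 0.0117). The Gpx4 call was lost without GL261-GSCs replicate 1 (edgeR, adjusted p = 0.0595) and without the filter on low counts (edgeR, adjusted p = 0.179).

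Tfrc was the counterpart, higher in the mitotic class of 6 of 6 libraries. Its level in mitotic against other cells was 101 against 72.0 CPM and 95.2 against 66.3 CPM in GL261 replicates 1 and 2. In GL261-GSCs replicates 1 to 4 it was 61.6 against 55.5, 50.4 against 40.5, 37.5 against 35.8 and 42.6 against 36.0 CPM. The fitted log2 difference was 0.33 ± 0.07 (SE; edgeR, adjusted p = 0.00219). Acsl4 was higher in 5 of 6 libraries, with 0.28 ± 0.07 (SE; edgeR, adjusted p = 0.00536), and lower by 0.01 in GL261 replicate 1. Trf and Slc7a11 did not pass the test, and Slc7a11 was higher in 3 libraries and lower in 3.

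The mitotic class was also the deeper one in 5 of the 6 libraries, for instance 16399 against 13918 median UMIs per cell in GL261 replicate 1, and the shallower in GL261-GSCs replicate 4, with 6671 against 7675. The part of depth in the result was not tested.

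Whether the mitotic difference itself differed between the groups was tested with a class by group term. Of the 9 genes 0 passed (edgeR, adjusted p under 0.05), against 0.882% of all genes tested (0.281% with a higher and 0.601% with a lower difference in GL261-GSCs). At an unadjusted p under 0.05 there were 4 of the 9, against 13.3% of all genes tested, and no other tool was run. For Tfrc the per-library log2 ratios of 0.49 and 0.52 in GL261 lay above the 0.07 to 0.31 of GL261-GSCs, with a fitted difference of -0.37 ± 0.09 (SE; edgeR, adjusted p = 0.0975, and 0.0478 without GL261-GSCs replicate 4). For Acsl4 the ratios of -0.01 and 0.04 in GL261 lay below the 0.27 to 0.52 of GL261-GSCs (edgeR, adjusted p = 0.200, and 0.0496 without GL261-GSCs replicate 4). For both genes this was the only removal of a GL261-GSCs library that passed. Gpx4 had ratios of -0.08 and -0.12 in GL261 and -0.45 to -0.21 in GL261-GSCs. Its fitted difference was -0.23 (edgeR, adjusted p = 0.304). Slc7a11 had a fitted difference of 0.83 (edgeR, adjusted p = 0.250). Among 4 other settings, Tfrc and Slc7a11 each passed in 1 (edgeR, adjusted p = 0.0392 and 0.00202) and Acsl4 and Gpx4 in 0.

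**Figure D5:**
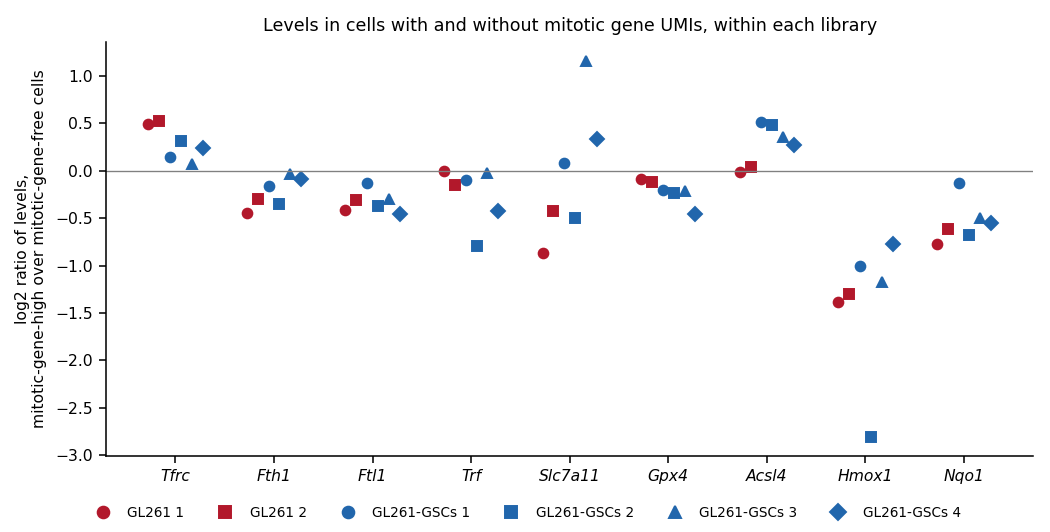
Log2 ratio of each gene's level in cells with at least 3 UMIs of mitotic genes over cells with 0, within each library, in red for GL261 and blue for GL261-GSCs. Points above the grey line at 0 are higher in the mitotic class. Tfrc lies above the line and Hmox1, Nqo1, Ftl1, Fth1 and Gpx4 below it in all 6 libraries, and the lowest Hmox1 point is GL261-GSCs replicate 2.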

How the data were processed

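The authors deposited raw UMI counts in unfiltered gene by barcode matrices, which per the file headers came from Cell Ranger 4. The build mm10 is named in the submitters' processing notes. The protocol mentions detergent lysis and does not say if cells or nuclei were captured. Groups and replicate numbers come from the titles.

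Among the 3000 largest barcodes the 99th percentile of UMIs was taken; cells were barcodes that reached 10% of it, with 500 genes or more and mitochondrial UMIs under 10%. Doublets were not removed. Counts were summed per library and tested with edgeR 4.0.16 (quasi-likelihood, TMM, filterByExpr, Benjamini-Hochberg, 2-sided) over all genes, with library as a block for the mitotic classes. The SE is the log2 difference divided by the square root of F. DESeq2 1.42.0 and limma-voom (limma 3.58.1) were alternatives. Scripts were tested on simulated data. Shares have exact binomial intervals.

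The 10 genes and all lists were chosen with earlier results of these data known. Beside the 10 genes, the text names, per list, the largest rise and fall with an adjusted p under 0.05 and a mean log2 CPM of 3 or more, and Nfe2l2, Keap1, Bach1, Aco1, Ireb2, Ncoa4, Slc3a2, Gclm, Txnrd1 and Aifm2. The oligodendrocyte list is given in part, since 1 result is not reported here.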

Additional observations from a re-analysis of the deposited data

Results flagged for a closer look

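No value met the rules for a closer look: 19 sets of 4 GL261-GSCs values, levels and shares of cells together with the ferritin share, were screened for a library far from the others, and 9 mitotic differences for a difference between groups. Chance alone would mark about 1 in 20 such sets.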

How the results depend on the processing

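Nqo1 and Gpx4 kept their direction and their call between groups under all alternatives, with log2 differences of -3.22 to -2.92 and -1.50 to -1.13. The number of genes that differed between groups, 5514, was 5403 to 6760 under other scalings, filters, tools and cell calls, and 1817 to 6193 when 1 library was left out, lowest when GL261 replicate 2 was dropped, and 1972 when GL261 replicate 1 was dropped; the 1 GL261 library left is assumed to vary like the others. The 29 pathway genes became 9 to 34 when 1 library was left out and 45 with the replicate block, the replicate number of the titles as a block. Whether the numbers pair the libraries could not be told. Correlations of deviations from the group means were -0.026 and 0.037 between libraries of the same number. The deviations of the 2 GL261 libraries mirror each other, so these values cannot decide it. The block gave 6744 genes in all and brought Ftl1 (-0.62, adjusted p = 0.0438), Trf (1.25, adjusted p = 0.0234) and Acsl4 (-0.45, adjusted p = 0.0383) past the edgeR threshold. Replicate numbers 3 and 4 occur in GL261-GSCs alone. With this block the group difference therefore rests on replicates 1 and 2 of each group and not on all libraries. The number of genes whose mitotic difference differed between groups, 135, was 72 with library size alone, 470 without the filter and 1 to 372 when 1 library was left out. Signs turned for Acsl4 between groups (0.046 with library size alone and -0.24 to 0.024 when 1 library was left out), Aifm2 (-0.018 with every barcode and -0.11 to 0.14 when 1 library was left out), Slc7a11 in the mitotic class (-0.32 to 0.075 when 1 library was left out, the highest without GL261 replicate 1), Ftl1 in the class by group term (0.046 with library size alone and -0.085 to 0.069 when 1 library was left out) and Hmox1 in that term (0.045 without the cell with the most Hmox1 UMIs, and -0.64 to 0.28 when 1 library was left out, the highest without GL261-GSCs replicate 2). The difference in the share of cells with a UMI of Acsl4, 1.5 percentage points at 2000 UMIs, was -6.36 without thinning and -0.0309 to 2.65 when 1 library was left out. The cause of these changes was not tested. For Slc40a1, depth limits what can be seen to the shares given for a count of 0.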

Other observations

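RNA outside cells did not mirror the cells for every gene. In barcodes with at least 100 and under 1000 UMIs, Nqo1 took 1.41 to 1.84 times the share of UMIs that it took in called cells, in all 6 libraries. Slc7a11 took 0.208 to 0.50 times its share in cells, also in all 6 libraries. Among 10537 genes with at least 100 UMIs in the cells of every library, the median of this ratio was 0.814 to 0.926 per library, the 10th percentile 0.451 to 0.628 and the 90th percentile 1.21 to 1.29. Gpx4, Ftl1 and Fth1 lay at 0.913 to 1.19.

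Across the cells of a library, at 2000 UMIs per cell, Fth1 and Ftl1 had Spearman correlations of 0.26 to 0.46 and Ftl1 and Gpx4 of 0.14 to 0.28, while Tfrc and Fth1 had -0.17 to -0.07. The cells of a library share its depth and its free RNA, so these values are a description.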
